A study of Cloeon viridulum with 15 samples.

Results

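In the mayfly *Cloeon viridulum*, 4 unigenes stand here for the juvenile hormone system, out of 91881 unigenes assembled without a genome from whole animals. They were taken by the protein names in the annotation column of the deposited table. They are juvenile hormone acid methyltransferase (JHAMT, 13_Contig_6017), juvenile hormone epoxide hydrolase 1 (JHEH, 13_Contig_8447), a farnesoic acid O-methyltransferase-like protein (FAMT, 13_Contig_3744) and Methoprene-tolerant (Met, 13_Contig_51). The unigenes are 1217, 723, 1224 and 10931 bp long, in that order. The name of each comes from its best protein hit, in the cockroach *Diploptera punctata* for JHAMT, the termite *Zootermopsis nevadensis* for JHEH, the mosquito *Aedes albopictus* for FAMT and the firebrat *Thermobia domestica* for Met. All 4 passed the filter on low counts.

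Juvenile hormone is a sesquiterpenoid made in the corpora allata, a gland behind the insect brain, and it keeps a larva larval from moult to moult. Its carbon skeleton comes from the mevalonate pathway, and its last steps are a methyl transfer by JHAMT and an epoxidation by a cytochrome P450 of the CYP15 family. Esterases and epoxide hydrolases break it down. It acts by binding Met, a bHLH-PAS transcription factor, which switches on Kr-h1, a repressor of adult development, and in many adult insects it also governs egg formation. Mayflies are the living insects that moult after gaining working wings, so the winged subimago lies between larva and reproductive imago.

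The study compared 5 groups of 3 libraries each, 15 in all: the young larva, the mature larva, the subimago, the imago, and a reference in which animals of all 4 stages were mixed. All animals were wild-caught as young larvae and kept indoors at 22 °C under 16 h of light and 8 h of dark, and no group was treated. A young larva library pooled 10 animals whose sex is not given. For each later stage a library came from 6 animals, 3 of either sex. The mixed reference drew on 5 young larvae plus 2 mature larvae, 2 subimagoes and 2 imagoes per library. Whole bodies were used, so a transcript of a small gland is measured among those of every tissue, and a change in the number of cells that make a transcript cannot be told apart from a change in each cell.

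Library totals ran from 36550269 to 74837923 reads. Some libraries stood apart. Unigenes with a best hit outside animals, mostly protists and fungi, took 8.00%, 1.74% and 5.05% of the reads of young larva replicates 1, 2 and 3 and 2.45% of mature larva replicate 1, against 0.193% to 0.488% in the other libraries. A single unigene, First_Contig81, took 18.5% of the reads of imago replicate 2, 21.5% of those of subimago replicate 3 and 34.3% of those of mixture replicate 3. Mixture replicate 1 held reads on 160 unigenes with a best hit in moths or butterflies, out of 2149, that had at least 5 reads there and none in any other library, and each of the other libraries held at most 2 such unigenes. Germline transcripts, 5 unigenes annotated as vasa, bicaudal C or vitellogenin receptor, summed to between 19.6 and 28.2 RPKM in young larvae, 198 and 298 in mature larvae, 383 and 571 in subimagoes, 813 and 1065 in imagoes and 341 and 475 in the mixture. Each later-stage library pooled both sexes, so the sum cannot be assigned to females alone. Of the 5, bicaudal C held the most reads, 620556 over all libraries, against 133276 for vasa, the next. From young to mature larvae 4 of these 5 rose and 1 fell, where 25.3% of all tested unigenes rose and 9.73% fell. From mature larva to subimago 1 rose and 1 fell (8.98% and 14.2% of all tested unigenes). From subimago to imago 2 rose and 0 fell (6.74% and 9.26%). RPKM is the read count scaled by unigene length and library total.

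The 4 unigenes took 4 different courses through the life cycle. From the youngest to the adult stage JHAMT rose 17.4-fold and JHEH fell 10.9-fold. FAMT fell to its lowest level in the subimago and rose again in the imago. Met changed least, and its level was highest in the imago. Each differed among the 4 stages in edgeR's quasi-likelihood test with Benjamini-Hochberg adjustment over all 34131 unigenes tested (adjusted p = 1.97e-05 for JHAMT, 2.68e-06 for JHEH, 1.99e-06 for FAMT and 0.000783 for Met). Such a difference was common, since 75.2% of all tested unigenes were called in the same test.

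**Figure D1:**
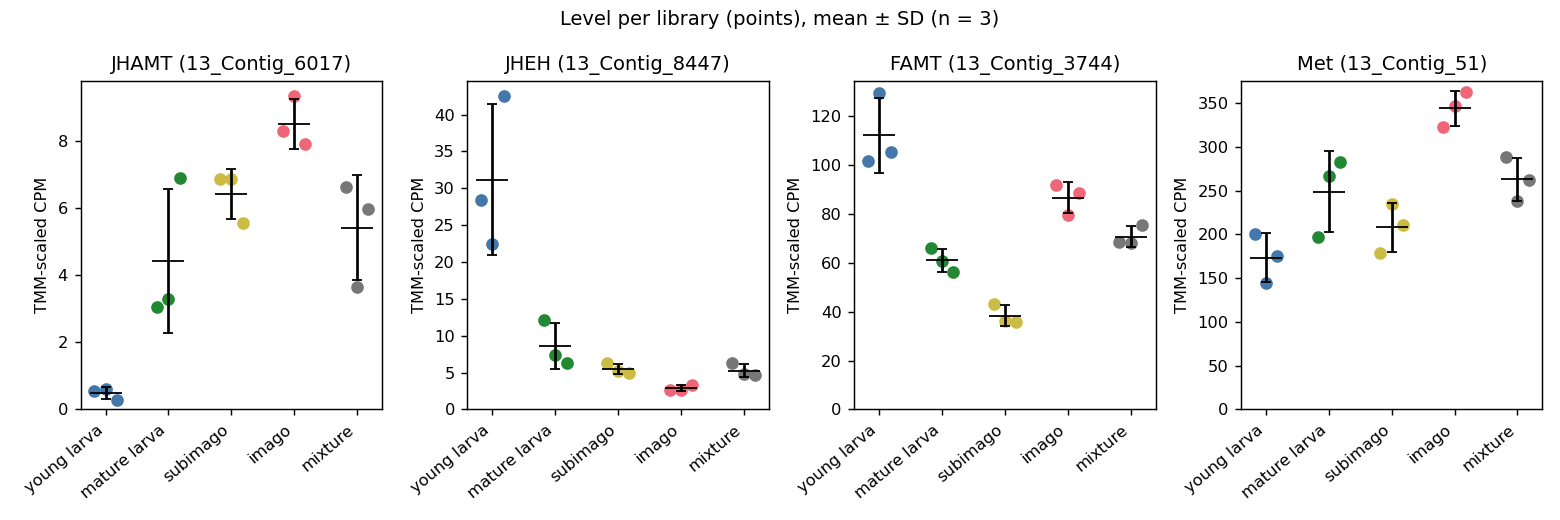
TMM-scaled CPM (vertical axes, linear and starting at 0) of the 4 unigenes in each of the 15 libraries (points), with the mean and SD of the 3 libraries of a group (black bars). JHAMT sits at or below 0.605 in every young larva library and at 7.90 or above in every imago library, JHEH takes the opposite course, FAMT dips in the subimago, and Met is highest in the imago; the order of the larval stages for Met reverses when libraries are scaled by their totals alone.

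Per unit of length, FAMT was the most abundant of the 4 transcripts at every stage, followed by JHEH in young larvae and by Met at the later stages. In deposited RPKM, FAMT was at 113 ± 28.6 in young larvae and 81.8 ± 14.0 in imagoes (SD, n = 3), and Met was at 19.3 ± 1.84 and 36.2 ± 4.32. JHEH was at 51.8 ± 12.7 RPKM in young larvae and 4.59 ± 0.983 in imagoes. JHAMT was the least abundant of the 4 in young larvae at 0.499 ± 0.212 RPKM. In imagoes it exceeded the JHEH unigene 13_Contig_8447 taken alone, at 7.98 ± 0.246. In the same RPKM, which is not TMM-scaled between libraries, the fold between the highest and the lowest stage mean was 16.0 for JHAMT, 11.3 for JHEH, 3.49 for FAMT and 1.91 for Met. The lowest Met mean in RPKM was that of mature larvae, at 19.0. In TMM-scaled CPM the lowest Met mean was that of young larvae.

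JHAMT transfers a methyl group to farnesoic acid or juvenile hormone acid and is known as a rate-setting enzyme of the pathway in several insects. Young larvae held few JHAMT reads, 24, 37 and 16 in replicates 1 to 3. In CPM, the read count scaled by library size after TMM scaling, these came to 0.562, 0.605 and 0.291. The mature larvae were at 3.05, 3.30 and 6.88 CPM. Every mature larva library thus lay above every young larva library, with replicate 3 above the other two. The subimagoes were at 6.85, 6.87 and 5.57 CPM and the imagoes at 8.28, 9.33 and 7.90 CPM. The subimago values fell within the range of the mature larvae, whereas the imago values lay above those of all other stages.

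JHAMT rose by 3.18 ± 0.39 (log2 change ± SE) from young to mature larvae, or 9.04-fold (edgeR adjusted p = 3.33e-05). Neither later step passed the test. The change from mature larva to subimago was 0.54 ± 0.36 (95% confidence interval -0.24 to 1.32, adjusted p = 0.251), and without mature larva replicate 3 it was 1.03 (adjusted p = 0.0407). The change from subimago to imago was 0.40 ± 0.36 (interval -0.38 to 1.18, adjusted p = 0.572). Over both steps together, imagoes stood 0.95 ± 0.36 above mature larvae with an adjusted p of 0.0504. That value passed the test in 7 of 25 alternative analyses, among them without mature larva replicate 3 (1.43, adjusted p = 0.00665) and DESeq2 (1.09, adjusted p = 0.00321). In order of level, then, young larvae lay below the other stages, and no neighbouring pair among mature larvae, subimagoes and imagoes differed at the threshold. The summed germline level moved in the same direction as JHAMT across the stages, though not all of its unigenes rose. The part of the germline in the rise of JHAMT was not tested.

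JHEH opens the epoxide ring of juvenile hormone and so takes part in its breakdown. The young larvae were at 28.5, 22.5 and 42.6 CPM. The mature larvae were at 12.2, 7.40 and 6.36 CPM, all below the young larvae, with replicate 1 the highest. The subimagoes were at 6.24, 5.26 and 4.91 CPM and the imagoes at 2.66, 2.63 and 3.32 CPM. No 2 successive stages overlapped.

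JHEH fell by 1.85 ± 0.29 on the log2 scale from young to mature larvae, a 3.60-fold drop (adjusted p = 0.000273). Within each larval stage the JHEH level was highest in libraries with larger non-animal shares, namely young larva replicates 1 and 3 and mature larva replicate 1. Without mature larva replicate 1 the change was -2.14 (adjusted p = 6.48e-05), and young larva replicate 2, with the smallest share of its stage, lay above every mature larva library. The next step, to the subimago, was -0.66 ± 0.29 (adjusted p = 0.103) and was -0.32 without mature larva replicate 1. From subimago to imago JHEH fell by 0.93 ± 0.29, a 1.91-fold drop at an adjusted p of 0.0455. This last call held in 9 of 26 alternative analyses, and not under DESeq2's size factors (-0.81), library totals (-0.78), no filter on low counts (-1.0) or with the mixture libraries left out (-0.81). Imagoes lay 1.59 ± 0.29 below mature larvae (adjusted p = 0.00155).

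The best hit of JHEH was shared by 3 tested unigenes, so reads of closely related or split transcripts may have been divided among them. They are 13_Contig_8447, 13_Contig_8448 and 13_Contig_19816, of 723, 795 and 990 bp. 13_Contig_8447 held between 23.2% and 60.4% of their reads in a library. 13_Contig_19816 was at 43.7, 17.4 and 55.1 CPM in young larvae and 16.0, 4.13 and 4.66 CPM in mature larvae, and it fell between these stages (log2 change -2.23 ± 0.51, adjusted p = 0.00417). 13_Contig_8448 was at 28.8, 7.78 and 24 CPM in young larvae and 9.51, 1.03 and 3.07 CPM in mature larvae, and its change missed the threshold (-2.15 ± 0.83, adjusted p = 0.0641). In both, young larva replicates 1 and 3 and mature larva replicate 1 were the highest libraries of their stages, and these are also the libraries with the larger non-animal shares. The part of that share in these values was not tested. Neither 13_Contig_19816 nor 13_Contig_8448 passed the test from subimago to imago (-0.26 ± 0.49 and 0.05 ± 0.80). With the reads of the 3 unigenes summed, the fall from young to mature larvae was called (-2.07, adjusted p = 0.00161) and the change from subimago to imago was not (-0.41, adjusted p = 0.614).

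**Figure D2:**
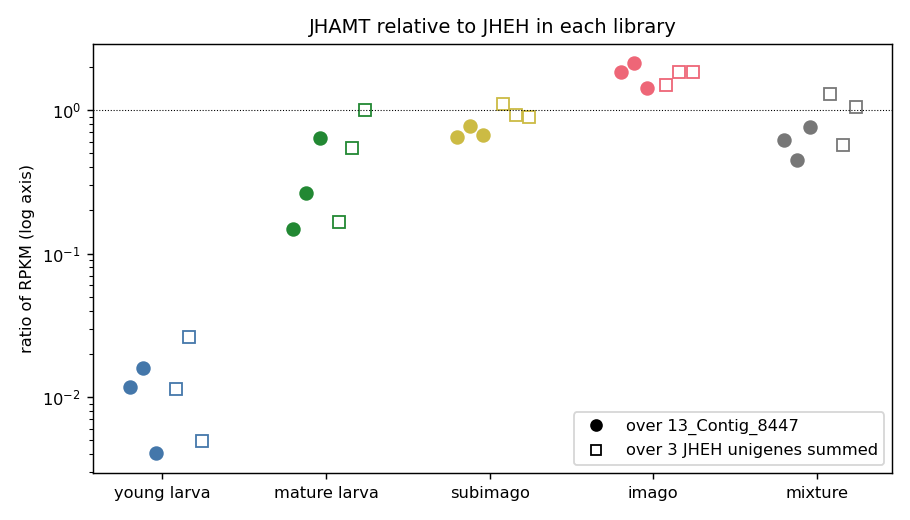
Ratio of JHAMT to JHEH in RPKM in each library (vertical log axis), with JHEH as 13_Contig_8447 (filled circles) or as 3 unigenes of the same best hit (open squares). For the latter, their summed reads were divided by their summed length of 2508 bp, as for pieces of 1 transcript. Were they separate transcripts, their RPKM values would add up to more and the ratio would be lower. The ratio lies at or below 0.0261 in every young larva library and at or above 1.41 in every imago library by either measure.

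The ratio of JHAMT to JHEH within a library sets a transcript of synthesis beside a transcript of breakdown, and it does not depend on how libraries are scaled to each other. It was 0.0117, 0.0160 and 0.00406 in the young larvae and 0.149, 0.265 and 0.643 in the mature larvae. The subimagoes were at 0.652, 0.775 and 0.674 and the imagoes at 1.85, 2.11 and 1.41. The ratio thus lay higher in every library of a stage than in any library of the stage before. The reads of the 3 JHEH unigenes were also summed and divided by their summed length of 2508 bp, as for pieces of 1 transcript. The group means were then 0.0142 ± 0.0109 in young larvae, 0.571 ± 0.420 in mature larvae, 0.977 ± 0.114 in subimagoes and 1.73 ± 0.206 in imagoes (SD, n = 3). The ranges of mature larvae and subimagoes overlapped by this measure. Were the 3 separate transcripts, their RPKM values would add up to more, and the ratio would be lower at every stage.

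FAMT is named for methyl transfer to farnesoic acid, studied mainly in crustaceans, and belongs to a different protein family from JHAMT. The young larvae were at 101, 130 and 105 CPM and the mature larvae at 66.0, 60.6 and 56.4 CPM. The subimagoes were lowest, at 43.2, 36.1 and 35.7 CPM. The imagoes were at 91.9, 79.6 and 88.6 CPM, above every mature larva and below every young larva library. No stage overlapped another.

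FAMT fell by 0.88 ± 0.12 from young to mature larvae (adjusted p = 8.37e-05) and by a further 0.67 ± 0.12 to the subimago (adjusted p = 0.00543). From subimago to imago it rose by 1.18 ± 0.12, or 2.26-fold (adjusted p = 8.54e-05). The imago remained 0.37 ± 0.12 below the young larva on the log2 scale (adjusted p = 0.016), a call made in 16 of 25 alternative analyses. It was lost without young larva replicate 2 (-0.21, adjusted p = 0.142), and also without subimago replicate 2, any single imago replicate or mixture replicate 1 (-0.34 to -0.26). Library totals alone and a fit with the mixture left out lost it too, as did leaving out mature larva replicate 1 with young larva replicate 2. The fall to the subimago was not called when libraries were scaled by totals alone (-0.40). The stage means stood in the order young larva, imago, mature larva and subimago, and the difference between young larva and imago was called in the fewest alternative analyses of the 3 between neighbours in that order.

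Met is the receptor of the hormone. The young larvae were at 200, 145 and 175 CPM, the mature larvae at 197, 267 and 283 CPM, and the subimagoes at 179, 235 and 210 CPM. The ranges of these 3 stages overlapped. The imagoes were at 323, 347 and 363 CPM, above every library of the other stages.

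From subimago to imago Met rose by 0.73 ± 0.16, or 1.65-fold (adjusted p = 0.0086), and without subimago replicate 1 this was 0.63 (adjusted p = 0.0546). Imagoes exceeded young larvae by 0.99 ± 0.16 (adjusted p = 0.000182) and mature larvae by 0.47 ± 0.16 (adjusted p = 0.0322). The latter call was made in 18 of 25 alternative analyses. It was lost without mature larva replicate 1 (0.33, adjusted p = 0.127), and also without any single imago replicate. Arthropod hits alone and no filter on low counts lost it as well. Met rose by 0.52 ± 0.16 from young to mature larvae (adjusted p = 0.0218), but this call was made in 15 of 25 alternative analyses, was lost with DESeq2's size factors (0.32) and the direction reversed with library totals alone (-0.0287). That scaling moved the median change of all tested unigenes by -0.54 in this comparison. Subimagoes did not pass the test against mature larvae (-0.26 ± 0.16, adjusted p = 0.218) or young larvae (0.26 ± 0.16, adjusted p = 0.161).

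**Figure D3:**
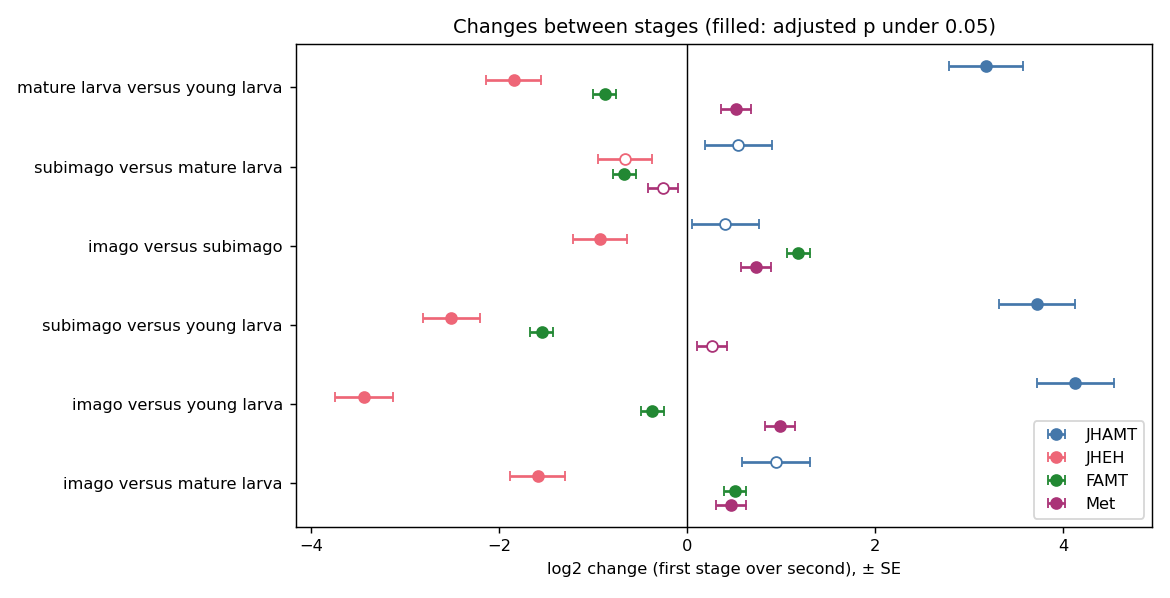
Log2 change ± SE of the 4 unigenes for the 6 pairs of stages (horizontal axis, first stage over second). Filled points passed the test at an adjusted p under 0.05; the Met point for mature over young larvae (0.52) reverses with library totals alone (-0.0287).

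The share of unigenes called differed widely between comparisons. All 4 were called between mature and young larvae, where 35.1% of all tested unigenes were called. FAMT alone was called between subimago and mature larva, against 23.1% of all unigenes, and 3 of 4, JHAMT excepted, between imago and subimago, against 16%. Over longer spans, 3 of 4 were called between subimago and young larva (65.4% of all unigenes), 4 of 4 between imago and young larva (70.4%) and 3 of 4 between imago and mature larva (43.5%). The 4 all have an arthropod best hit. In a run on arthropod hits alone, 6880, 4531 and 3934 of 11938 unigenes were called at the 3 successive steps. In that run 3 of the 4 were called at each of these steps. The comparisons share libraries, so their counts are not independent of each other.

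Against the stage mixture, all 4 unigenes differed in young larvae, where 57% of all unigenes were called. JHAMT was 3.47 ± 0.40 lower on the log2 scale in young larvae (mixture libraries 6.64, 3.65 and 5.96 CPM), and JHEH was 2.56 ± 0.30 higher (6.36, 4.84 and 4.63 CPM). FAMT was 0.67 ± 0.12 higher (68.5, 68.0 and 75.5 CPM), and the change of Met was -0.60 ± 0.16 (288, 239 and 262 CPM). The call of Met was made in 20 of 24 alternative analyses. It was lost with DESeq2's size factors (-0.34), library totals alone (-0.0502), arthropod hits alone (-0.21) and in DESeq2 (-0.34), where 3 of the 4 unigenes were called. There DESeq2 called 19115 of all 34131 unigenes. FAMT was also lower in subimagoes than in the mixture (-0.88 ± 0.12, adjusted p = 0.00716), the single unigene of the 4 called there, against 2.29% of all unigenes. None was called in mature larvae by edgeR (1.1% of all unigenes) or DESeq2 (4476 of 34131), and 1, JHEH, had an unadjusted p under 0.05. None was called in imagoes by edgeR (16.7% of all unigenes), although 3 had an unadjusted p under 0.05 and DESeq2 called 3. In that comparison DESeq2 called 10904 of all 34131 unigenes.

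The rest of hormone synthesis was followed through 11 further tested unigenes with an animal best hit, from HMG-CoA synthase to the CYP15A1 epoxidase. Of these, 6 were annotated as CYP15A1, a late step, so the counts and medians below do not describe the upstream mevalonate branch alone. From young to mature larvae 1 rose and 3 fell, from mature larva to subimago 4 rose and 3 fell, and from subimago to imago 5 rose and 1 fell. Of all tested unigenes 25.3% rose and 9.73% fell at the first step, 8.98% rose and 14.2% fell at the second, and 6.74% rose and 9.26% fell at the last. In a run on arthropod hits alone, 4036 of 11938 unigenes rose and 2844 fell at the first step. At the second 1809 rose and 2722 fell, and at the last 2028 rose and 1906 fell. The median log2 change of the 11 was 0.07, 0.51 and 0.53 at the 3 steps, beside -0.05, -0.28 and -0.02 over all tested unigenes. Without mature larva replicate 1, the counts were 3 up and 3 down at the first step and 3 up and 1 down at the second. In that run 9619 of all 38812 tested unigenes rose and 9932 fell at the first step. At the second step 1042 rose and 2048 fell. With each library left out in turn, the rises numbered 1 to 3, 2 to 4 and 2 to 6 at the 3 steps and the falls 2 to 3, 1 to 3 and 0 to 2, and the lowest number of rises at the last step came without subimago replicate 2 or 3.

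Of the 11, 6 had a best hit annotated as CYP15A1, the enzyme that makes the epoxide from methyl farnesoate in cockroaches, and they did not move together. In 4 the protein name of the hit is CYP15A1, from *Diploptera punctata*. In the other 2, 13_Contig_2478 and 13_Contig_11610, the protein name is cytochrome P450 and the gene name CYP15A1, from the termite *Reticulitermes flavipes*. The most abundant in reads, 13_Contig_2478, was at 19.7, 21.0 and 18.6 CPM in young larvae and 109, 145 and 205 CPM in mature larvae. It rose by 2.96 ± 0.21 between these stages (adjusted p = 2.16e-07) and by 0.61 ± 0.20 to the subimago (adjusted p = 0.0435, called in 7 of 25 alternative analyses), and it reached 366, 322 and 325 CPM in the imagoes. Its course thus ran in the direction of JHAMT.

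The other unigene with the termite hit, 13_Contig_11610, lay between 0.654 and 1.14 CPM in every library of the first 3 stages and at 13.6, 14.2 and 13.4 CPM in the imagoes, a rise of 3.80 ± 0.26 at the final moult (adjusted p = 7.31e-06). 13_Contig_17979 had at most 5 reads in any larval library, between 54 and 96 in the subimagoes and between 307 and 420 in the imagoes. It rose by 4.46 ± 0.68 to the subimago (adjusted p = 0.00255) and by 1.92 ± 0.57 to the imago (adjusted p = 0.0384, called in 17 of 25 alternative analyses). 13_Contig_10329 took a course with a dip in the subimago. It was at 29.7, 25.0 and 41.4 CPM in young larvae, 1.90, 1.38 and 0.999 CPM in subimagoes, and 5.82, 6.76 and 4.97 CPM in imagoes, with a log2 change of -2.03 ± 0.50 into the subimago (adjusted p = 0.0207) and 2.03 ± 0.50 out of it (adjusted p = 0.0165). The fall into the subimago was -1.31 without mature larva replicate 1 (adjusted p = 0.0822). A best hit names the nearest known protein, so these may be several related P450 genes.

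Farnesyl pyrophosphate synthetase makes the sesquiterpenoid skeleton. Its unigene 13_Contig_8672 also dipped in the subimago, from 65.3, 61.5 and 71.5 CPM in young larvae through 28.7, 22.7 and 16.9 CPM in mature larvae to 10.0, 13.3 and 12.6 CPM, and it returned to 27.8, 26.3 and 26.6 CPM in imagoes. It fell by 1.54 ± 0.18 and 0.93 ± 0.17 at the first steps and rose by 1.16 ± 0.17 at the last (adjusted p = 1.67e-05, 0.00652 and 0.000861). A further unigene with the same best hit, 13_Contig_9711, was called at no step. HMG-CoA reductase (13_Contig_6167), the rate-setting enzyme of the mevalonate pathway, named here after its values were seen, was at 59.7, 65.0 and 60.4 CPM in mature larvae and 106, 116 and 111 CPM in subimagoes, a rise of 0.85 ± 0.14 (adjusted p = 0.00405).

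**Figure D4:**
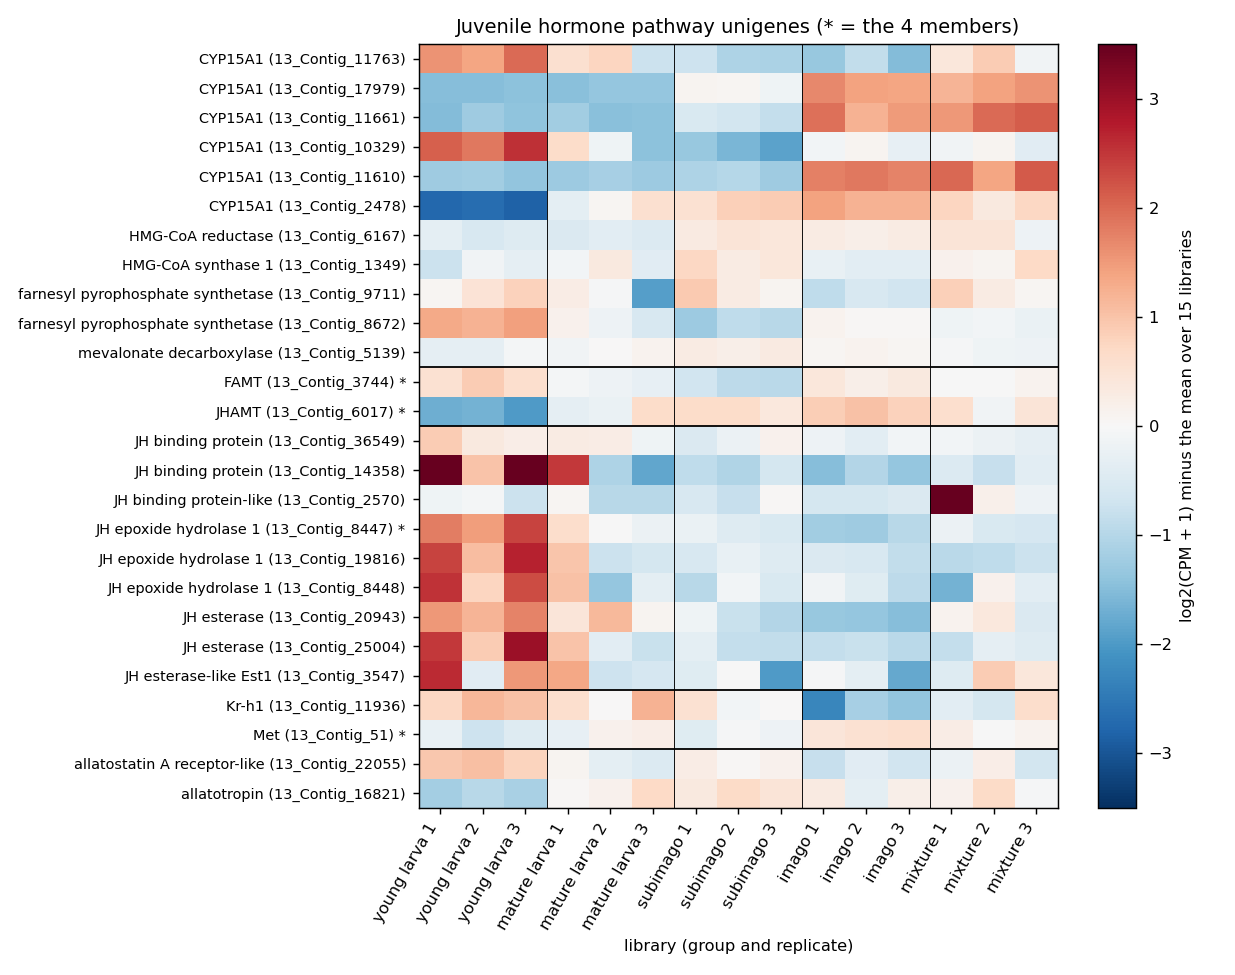
Level of each tested juvenile hormone pathway unigene with an animal best hit (rows; asterisks mark the 4 main unigenes) in each library (columns), as log2(CPM + 1) minus its mean over the 15 libraries; values past 3.5 in either direction take the end colour. Horizontal lines separate the mevalonate and farnesyl branch with the unigenes whose hit has CYP15A1 as protein or gene name, the methyltransferases, breakdown and carriage, receptor and response, and control of the corpora allata. Among the CYP15A1 rows, 13_Contig_11610 is high in the imago and the mixture and 13_Contig_10329 in the young larva; in another row, 13_Contig_2570 stands out in mixture replicate 1.

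On the side of breakdown and carriage, 8 further unigenes were tested. They include 13_Contig_19816 and 13_Contig_8448, which share the best hit of JHEH and may hold reads of the same transcript. The counts and medians below, with a fall of 13_Contig_19816 at the first step, may thus partly repeat the result for JHEH. The 8 also include 13_Contig_2570, with 91.4% of its reads in mixture replicate 1. None rose at any of the 3 steps in edgeR, while 2 fell from young to mature larvae, 1 to the subimago and 1 to the imago. Of all tested unigenes 9.73%, 14.2% and 9.26% fell at these steps, so the counts at the later steps are near the background. The 8 all have an arthropod best hit. In a run on arthropod hits alone, 2844, 2722 and 1906 of 11938 unigenes fell at the 3 steps. The count of falls at the first step is near that share. The median log2 change of the 8 was -1.75, -0.99 and -0.42, beside -0.05, -0.28 and -0.02 over all tested unigenes. Without mature larva replicate 1 the first count of falls was 5, in a run where 9932 of all 38812 tested unigenes fell. With each library left out the 3 counts of falls ran from 1 to 5, 0 to 2 and 0 to 1. A juvenile hormone esterase, 13_Contig_20943, was at 12.9, 10.2 and 15.5 CPM in young larvae and 0.956, 0.933 and 0.738 CPM in imagoes. Its change from young to mature larvae was not called (-0.97 ± 0.40, adjusted p = 0.0811). It fell by 1.55 ± 0.41 to the subimago (adjusted p = 0.0251, called in 20 of 25 alternative analyses) and by 1.35 ± 0.41 to the imago (adjusted p = 0.043). The latter call was made in 13 of 25 alternative analyses, and without subimago replicate 1 the change was -0.90 (adjusted p = 0.240). A further esterase, 13_Contig_25004, was at 12.7, 3.52 and 18.5 CPM in young larvae and 3.91, 0.900 and 0.426 CPM in mature larvae (log2 change -2.71 ± 0.81, adjusted p = 0.0198, called in 20 of 25 alternative analyses). Its highest libraries in each larval stage were again those with the larger non-animal shares. Their part was not tested.

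Of the response side, Kr-h1 (13_Contig_11936) was the single unigene found beside Met. It was at 66.4, 90.6 and 81.4 CPM in young larvae, 60.2, 39.7 and 93.6 CPM in mature larvae and 58.3, 37.2 and 40.3 CPM in subimagoes. These stages overlapped in part, and the imagoes lay below all of them at 7.38, 17.2 and 14.5 CPM. Kr-h1 fell by 1.79 ± 0.41 from subimago to imago (adjusted p = 0.0116), a step at which Met rose and JHAMT did not pass the test. Without subimago replicate 1 the fall was -1.57 (adjusted p = 0.0542), and without imago replicate 1 it was -1.51 (adjusted p = 0.0516).

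The neuropeptide control of the corpora allata was represented by 2 unigenes. Allatotropin (13_Contig_16821), a peptide that stimulates hormone synthesis in moths, rose from 2.20, 2.76 and 2.33 CPM in young larvae to 6.52, 7.13 and 10.9 CPM in mature larvae (log2 change 1.75 ± 0.29, adjusted p = 0.000419). A putative allatostatin A receptor (13_Contig_22055), whose peptides inhibit synthesis in cockroaches, fell from 3.86, 4.20 and 3.33 CPM to 1.69, 1.00 and 0.827 CPM over the same step (-1.69 ± 0.42, adjusted p = 0.00735). It fell again from subimago to imago (-1.48 ± 0.42, adjusted p = 0.0328), a call made in 17 of 25 alternative analyses. Neither unigene passed the test from mature larva to subimago.

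Other unigenes carried the same protein names as the 4. The FAMT-named 13_Contig_17440 was called at none of the 3 steps and lay between 0.443 and 3.96 CPM, and the FAMT-named 13_Contig_35292 fell from young to mature larvae (-1.57 ± 0.50, adjusted p = 0.027) at levels under 1 CPM. A further 4 with a best hit in moths or butterflies were too rare to test and had most of their reads in mixture replicate 1. The JHEH-named 13_Contig_27200 had 59 of its 73 reads there, 13_Contig_15311 and 13_Contig_26723 all of their 10 and 6 reads, and the FAMT-named 13_Contig_30850 had 16 of 20. The calls of the 4 main unigenes against the mixture did not change without mixture replicate 1.

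The unigenes whose levels followed the 4 most closely were sought among 6094 unigenes with an arthropod best hit, a named protein and a mean of at least 1 CPM, by Pearson's r of log2(CPM + 1) over the 15 libraries. These r values describe a shared course over stages and scaling, and the libraries of a stage are not independent of each other. For JHAMT they were HIRA (13_Contig_9199, a histone chaperone, r = 0.990), a PAR-6 beta-like protein (13_Contig_6332, a cell polarity factor, 0.990) and the elongin C subunit annotated as transcription elongation factor B polypeptide 1 (13_Contig_11671, 0.989). For JHEH they were the glycolytic enzyme glyceraldehyde-3-phosphate dehydrogenase (13_Contig_2955, 0.987), an aminopeptidase N (13_Contig_26822, 0.979) and retinol dehydrogenase 11 (13_Contig_19482, 0.978). For FAMT they were a ryanodine receptor, a calcium release channel of muscle (13_Contig_2768, 0.955), 4-hydroxyphenylpyruvate dioxygenase of tyrosine breakdown (13_Contig_4912, 0.953) and seryl-tRNA synthetase (13_Contig_408, 0.944). For Met they were a heat shock protein (13_Contig_34940, 0.971), a receptor-type tyrosine phosphatase (13_Contig_3369, 0.952) and sphingosine kinase 2 (13_Contig_9663, 0.947).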

How the data were processed

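Whole bodies of 4 stages and a mixture were sequenced, 3 libraries per group. Per the labels' protocols, low-quality and ribosomal reads were removed and the rest assembled with CLC Genomics Workbench and CAP3. DESeq is named, with no version, in the submitters' processing notes. Read mapper, counting rule and strand: not given in the sources used here. The deposited table holds counts of reads per unigene. It also holds the authors' RPKM values, which equal the count over unigene length and library total (largest relative difference 3.42e-07). Reads of near-identical unigenes may have been split between them.

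The counts were tested with edgeR 4.0.16 in R 4.3.3 (robust quasi-likelihood fit, TMM scaling, filterByExpr) on all 15 libraries in 5 groups with 1 shared spread, which left 34131 unigenes. A unigene was called, and is said to have risen or fallen, at a Benjamini-Hochberg adjusted p under 0.05. SE and 95% intervals come from the model. The procedure was checked on simulated data with 1 fixed spread for all unigenes and no outlying libraries. That check does not cover the differences in composition between the libraries here. DESeq2 1.42.0 was an alternative. Replicates are pools of different animals, described as biological in the labels. Deposited RPKM compares levels between unigenes, TMM-scaled CPM between libraries.

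The members and lists were chosen with earlier results of these data known. Lists come from protein names in the annotation column, with spelling variants admitted after the annotation was read. Named were the 4 unigenes, list unigenes with an animal hit called at 1 or more steps (at most 5 per list, by smallest adjusted p), copies with a member's protein name, and the 3 closest unigenes in course to each. Alternatives were other scalings, filters, fits and left-out libraries. After seeing the data, leaving out mature larva replicate 1 with young larva replicate 2, and summing the 3 JHEH unigenes, were added. No sequences were used here.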

Additional observations from a re-analysis of the deposited data

How the results depend on the processing

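The directions and calls of JHAMT, JHEH and FAMT from young to mature larvae held in every alternative run. Met at that step was 0.32 with DESeq2's size factors and in DESeq2, 0.271 on arthropod hits alone, 0.402 with only the 2 groups, 0.363 without the mixture, -0.0287 with library totals, and 0.41 to 0.703 with each library left out. From mature larva to subimago, totals gave 0 calls, FAMT -0.399 and Met 0.0526, and arthropod hits gave 3 calls, JHEH -0.867 and Met -0.431. Over all unigenes, 7596 of 34131 were called with totals and 4531 of 11938 on arthropod hits. Left-out libraries gave 1 to 2 calls and JHAMT 0.305 to 1.03. The 2 calls came without mature larva replicate 3, where 10808 of 39097 unigenes were called. From subimago to imago, JHEH lost its call with size factors (-0.812), totals (-0.782), no filter (-1.0), no mixture (-0.808) and summed unigenes (-0.414). Left-out libraries gave JHEH -1.05 to -0.822, Met 0.633 to 0.821 and 1 to 3 calls. The run with 1 call was without subimago replicate 1, where 3010 of 38984 unigenes were called. Imago against mature larva had 1 call on arthropod hits and 1 with no filter, where 7143 of 11938 and 10189 of 91881 unigenes were called. Imago against mixture had 2 calls with size factors, 1 with totals, arthropod hits, the stricter filter or the 2 groups, 3 in DESeq2, 2 without mature larva replicate 1 and young larva replicate 2, and 0 to 1 with each library left out. Of 34131 tested unigenes, 8459 were called with size factors there, 7678 with totals and 10904 in DESeq2. The runs on arthropod hits, the stricter filter and the 2 groups called 4249 of 11938, 6145 of 30266 and 6556 of 22692. Subimago against mixture had 0 calls with totals and 0 to 1 with each library left out. Over all unigenes, 29 of 34131 were called there with totals. The left-out run with 0 calls was without subimago replicate 3, where 132 of 39117 unigenes were called.

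Signs reversed for Met in mature larva against mixture (0.0600 on arthropod hits, 0.00698 with no filter, 0.0665 without both libraries, -0.202 to 0.0611 with each left out) and subimago against young larva (-0.161 on arthropod hits), JHEH in subimago against mixture (-0.0675 to 0.196), 13_Contig_11610 from young to mature larvae (-0.112, -0.477, -0.164, -0.116, -0.0632 and -0.0983 with size factors, totals, arthropod hits, DESeq2, 2 groups and no mixture, -0.0495 to 0.205 with libraries left out) and 13_Contig_19816 from mature larva to subimago (0.31 without both libraries, -1.06 to 0.321 with each left out). None of these was called. Causes were not tested. RPKM scaled by TMM gave JHAMT 6.99 in imagoes, FAMT 57.7 in the mixture, and Met 15.9, 22.8, 31.5 and 24 in young larvae, mature larvae, imagoes and the mixture. With the reads and the lengths of the 3 JHEH unigenes summed, the ratio was 0.977 in subimagoes and 0.971 in the mixture.

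Replicate numbers were not treated as pairs. Between young and mature larvae, same-numbered deviations correlated at 0.484, 0.551 and -0.303 for replicates 1 to 3. The best correlations with another number were 0.359, -0.264 and 0.423, so the same number was the closer match for replicates 1 and 2. At the 2 later steps same-numbered correlations ran from -0.0669 to 0.149. With the replicate block, JHEH from subimago to imago was -0.924 (adjusted p = 0.051), and 4, 1 and 2 of the 4 unigenes were called at the 3 steps. Over all unigenes, 12540, 5350 and 5056 of 34131 were called at these steps in that fit. JHAMT had 77 reads in all in young larvae, so its depth there limits the precision of its folds.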

Other observations

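Mixture replicate 1 also held most reads of a juvenile hormone binding protein-like unigene, 13_Contig_2570, whose best hit is in the hawkmoth *Manduca sexta*: 3764 of its 4117 reads (91.4%). The farnesyl pyrophosphate synthase 13_Contig_13330, with a best hit in the butterfly *Papilio polytes*, had 29 of 32 reads there. Over the whole table, 1682 of the 2149 unigenes with a best hit in moths or butterflies had at least 5 reads in that library, against 421 to 647 in the others. Of 12847 unigenes with another arthropod as best hit, 7 had at least 5 reads there and none elsewhere.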
